A study of Mus musculus with 9 samples.

Results

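Oxidative phosphorylation is described here through 98 genes: the protein-coding rows of the deposited count table whose names begin with mt-Nd, mt-Co, mt-Cytb, mt-Atp, Ndufa, Ndufb, Ndufc, Ndufs or Ndufv with a digit, Uqcr, Cox4 to Cox8 or Atp5, together with Sdha, Sdhb, Sdhc and Sdhd. They are 98 of 54532 rows and of 22046 protein-coding rows. Of them, 13 are encoded by the mitochondrial genome and 85 by nuclear chromosomes. The 98 rows carry 97 names, because Atp5o is listed under 2 gene identifiers. A filter on low counts left 94 for testing, which were all 13 mitochondrial-encoded and 81 nuclear-encoded members. The members that did not pass it were Cox7b2, Cox8b, Cox8c and the second Atp5o row (ENSMUSG00000116933), of which Cox8c and that Atp5o row had 0 counts in all 9 libraries.

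RNA came from the hypothalamus, which governs appetite and energy use, of wild type male mice of the outbred ICR stock on postnatal day 21, with 3 libraries in each of 3 groups. LP pups were born to and nursed by dams on a low-fat diet with 10% of energy as fat, and were injected daily with PBS on postnatal days 4 to 16. HP pups had mothers fed a diet rich in fat (45% of energy) and sucrose and the same PBS injections. HA pups had mothers fed as in HP and were given 4-PBA, a chemical chaperone and inhibitor of histone deacetylases, over the same days. Dams of all groups began their diet at 5 weeks of age, 5 weeks before mating, and kept it through gestation and lactation, with litters set to 10 pups. No group from low-fat dams received 4-PBA. Library titles carry a code whose meaning is not stated: Lg42 and Lg63 in LP, and Hg43 and Hg13 in both HP and HA, so code and diet cannot be told apart.

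Oxidative phosphorylation is the last stage of respiration, in which complexes I to IV of the inner mitochondrial membrane pass electrons to oxygen, all but complex II pump protons, and complex V, the ATP synthase, uses the proton gradient to make ATP. Complex II is built from nuclear genes alone, whereas the other complexes join a few subunits made inside the mitochondrion to many that are encoded in the nucleus and imported. The mitochondrial genes are transcribed as long joint precursors from both strands of a small circular genome and are then cut apart, so their levels are not independent of each other, while each nuclear gene has its own promoter.

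Fragments of mitochondrial DNA have been copied into nuclear chromosomes, and messenger RNAs of nuclear members have been copied back as processed pseudogenes. Such copies matter for the values below because a read that matches a member and a copy equally well cannot be placed. Transcripts of the members were compared with all transcripts of the GENCODE M21 annotation of GRCm38, and a match was kept from 95% identity over at least 100 bases and 50% of the other transcript. Of the 13 mitochondrial-encoded members, 9 had a match outside their own locus, and of the 85 nuclear-encoded members, 21 had one. A run of copies lies on the minus strand of chromosome 1 between 24611535 and 24616197 and holds Gm28661, Gm10925, Gm28437, Gm28438 and Gm10222, which match mt-Co2, mt-Atp6, mt-Co3, mt-Nd3 and mt-Nd4l over 98.99% to 99.87% of their length. The following windows of 60 bases, from GENCODE transcripts with GRCm38 coordinates, show how near these copies are, with capitals at the bases that differ. Positions are counted from 1 at the first base of the member's transcript.
mt-Co2, chrMT:7013-7072, plus strand: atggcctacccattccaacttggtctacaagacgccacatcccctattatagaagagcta
Gm28661, chr1:24615506-24615565, minus strand: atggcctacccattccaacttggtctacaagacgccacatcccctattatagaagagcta
mt-Nd3, chrMT:9459-9518, plus strand: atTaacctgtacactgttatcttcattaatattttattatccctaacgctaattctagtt
Gm28438, chr1:24613060-24613119, minus strand: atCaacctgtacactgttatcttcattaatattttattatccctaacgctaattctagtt
mt-Co1, chrMT:5787-5846, plus strand: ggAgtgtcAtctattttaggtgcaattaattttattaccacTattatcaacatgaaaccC
Gm13340, chr2:22589129-22589188, minus strand: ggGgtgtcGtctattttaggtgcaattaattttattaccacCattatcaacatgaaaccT
The mt-Co2 window has no difference from its copy, as in the whole of the match at 100% identity. Gm28438 differs from mt-Nd3 in this window by the substitution T3C. Gm13340, a full-length copy of mt-Co1 on chromosome 2, was 97.6% identical with 37 mismatches over 1545 bases, and the window shown has A462G, A468G, T501C and C519T.

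Processed pseudogenes of 3 nuclear-encoded members are shown in the same way, because the counts of member and copy in single libraries are compared further on.
Ndufs5, chr4:123715970-123716029, minus strand: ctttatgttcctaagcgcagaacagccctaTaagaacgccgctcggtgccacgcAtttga
BC002163, chr16:42955681-42955740, plus strand: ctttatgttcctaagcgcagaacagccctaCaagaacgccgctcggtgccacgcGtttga
Atp5g1, chr11:96073107-96073166, minus strand: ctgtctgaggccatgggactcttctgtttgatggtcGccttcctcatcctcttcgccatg
Gm10039, chr11:100361719-100361778, minus strand: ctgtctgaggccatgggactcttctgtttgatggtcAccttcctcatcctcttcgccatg
Ndufa12, chr10:94199968-94200027, plus strand: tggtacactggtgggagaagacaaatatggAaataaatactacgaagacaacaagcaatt
Gm15920, chr5:130188463-130188522, plus strand: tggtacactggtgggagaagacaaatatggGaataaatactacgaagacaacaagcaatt
The substitutions are T328C and A352G for Ndufs5, G437A for Atp5g1 and A460G for Ndufa12. Over their full matches the identities were 99.37%, 99.76% and 99.55%.

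Promoter letters of the nuclear-encoded members were searched for 6 motifs, and the shares are given as a description with no test. RefSeq promoter windows on GRCm38.p6, from 250 bases before to 50 after a start, were found for 68 of the 84 names of nuclear-encoded members, as 73 windows, and were compared with 21262 windows of protein-coding genes on both strands. The palindromic consensus of NRF1, a factor known for respiratory genes, was in 5 member windows (6.85%) and in 1.33% of all windows. CCGGAAG, the core bound by GABP and other ETS factors, was in 16 (21.9% against 11.6%), and AAGATGGC, the core of YY1 sites, in 10 (13.7% against 3.05%). GGGGCGGGG, an SP1 core, was in 12 (16.4% against 15.4%), TATAAA in 8 (11% against 12.6%) and TGACGTCA, the cAMP response element, in 4 (5.48% against 2.23%). Windows of 80 bases upstream of the start are printed for 2 members with the NRF1 letters and for Atp5e and Uqcr11, the members whose 3 HA libraries all lay above the other 6, which have the ETS letters. Capitals mark the motif as searched, which in Atp5e is the reverse complement.
Cox6a1, chr5:115349076-115349155, minus strand: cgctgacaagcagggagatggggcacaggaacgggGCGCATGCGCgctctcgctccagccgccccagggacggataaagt
Ndufa11, chr17:56717667-56717746, plus strand: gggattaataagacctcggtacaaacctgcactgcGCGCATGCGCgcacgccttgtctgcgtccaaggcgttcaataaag
Atp5e, chr2:174464160-174464239, minus strand: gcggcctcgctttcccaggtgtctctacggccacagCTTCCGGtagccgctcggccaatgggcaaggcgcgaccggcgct
Uqcr11, chr10:80406844-80406923, minus strand: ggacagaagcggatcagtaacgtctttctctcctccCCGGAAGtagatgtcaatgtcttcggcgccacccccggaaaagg
The ETS letters were also found upstream of Atp5h, Atp5j, Sdhd and other members whose HA libraries were not apart from the other 6. These matches describe letters and are not measured binding.

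Total counts per library lay between 18226924 and 21823961. All 12 hypothalamic marker genes had counts in every library, with a summed level of 1042 to 1378 CPM, counts scaled to library size. The summed level of 7 striatal medium spiny neuron markers was 383, 507 and 276 CPM (LP), and the other libraries held 258 to 276 CPM. That of 6 meningeal fibroblast markers reached 327 CPM in LP replicate 3 and 656 CPM in the third HA library, where the remaining 7 libraries had 52.9 to 103 CPM. In bulk tissue, fewer cells of a type and less RNA per cell cannot be told apart. The labels do not state whether pups within a group had different mothers, and p-values here reflect only how far these libraries vary.

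Levels of different genes were compared as deposited FPKM, counts per length and library size, averaged over the 9 libraries. Transcripts of the mitochondrial genome formed 2 sets. Of the 13, 7 had at least 1000 FPKM: mt-Co1, the catalytic subunit of complex IV, at 9088 FPKM, mt-Cytb of complex III at 5506 FPKM, and the complex I subunits mt-Nd1, mt-Nd2, mt-Nd5, mt-Nd4 and mt-Nd6 at 5128, 3048, 2003, 1895 and 1670 FPKM. The other 6 were listed at 89.9 FPKM (mt-Co2), 58.2 FPKM (mt-Co3), 53.6 FPKM (mt-Atp6), 51.0 FPKM (mt-Nd4l), 8.03 FPKM (mt-Nd3) and 1.79 FPKM (mt-Atp8). No level lay between 89.9 and 1670 FPKM, although mt-Co2 and mt-Co3 are cut from the same precursor as mt-Co1.

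The 5 low members other than mt-Atp8 each had a near-complete annotated copy on chromosome 1, and those copies carried counts of their own. In LP replicate 3, for example, mt-Atp6 had 46.8 CPM and Gm10925 had 45.1 CPM, mt-Co3 had 39.9 CPM and Gm28437 had 36.4 CPM, and mt-Nd4l had 7.41 CPM and Gm10222 had 10.6 CPM. For mt-Nd3 the copy was higher, with 26.0 CPM for Gm28438 against 3.33 CPM. Copies of parts of abundant members held far fewer counts than the member: Gm28439, which is 100% identical to 63.6% of mt-Nd4, had 13.99 to 49.3 CPM against 2420 to 2907 CPM for mt-Nd4. Gm29216, which is 99.79% identical to 31.3% of mt-Co1, had 11.96 to 46.7 CPM. Low counts of a copy do not show how many shared reads were left uncounted for the member. No copy passed the search for mt-Atp8, which overlaps mt-Atp6 by 43 bases on the same strand. Only annotated transcripts were searched, so a copy of mt-Atp8 outside them would have been missed. The levels of members with near-identical copies, mt-Nd4 and mt-Co1 among them, are uncertain. How reads with several matches were treated is not given in the sources used here.

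Nuclear-encoded members had a median of 56.6 FPKM. The highest were Cox8a and Cox6a1, small subunits of complex IV, at 602 and 455 FPKM, and Atp5a1 and Atp5b, the alpha and beta subunits of the ATP synthase head, at 281 and 263 FPKM. Cox4i1, the ubiquitous form of the largest nuclear subunit of complex IV, had 236 FPKM. The 2 highest of the other complexes were Ndufa8 and Ndufa2 of complex I (115 and 114 FPKM), Sdha, the flavoprotein, and Sdhd, a membrane anchor, of complex II (118 and 75.3 FPKM), and Uqcr10 and Uqcrfs1, the Rieske iron-sulfur protein, of complex III (135 and 114 FPKM). The plot of FPKM by complex shows the gap among the mitochondrial-encoded members beside the narrower range of most nuclear-encoded ones.

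**Figure D1:**
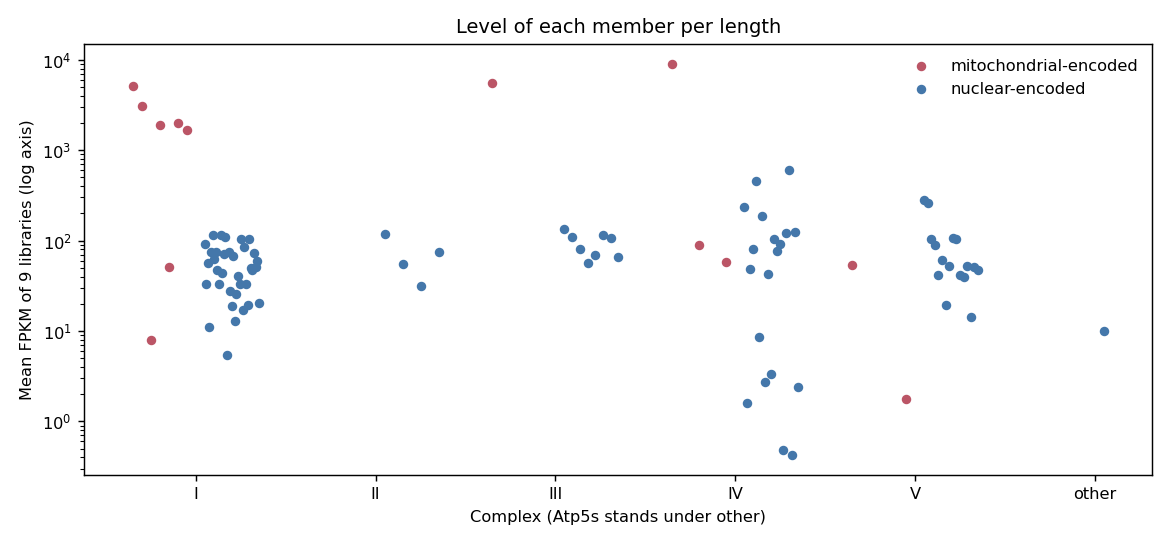
Mean FPKM over 9 libraries (log axis) of each member with counts, by complex, for mitochondrial-encoded (red) and nuclear-encoded (blue) members. Among the 13 mitochondrial-encoded members, 7 stand at 1670 to 9088 FPKM and 6 at 1.79 to 89.9 FPKM.

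Several complex IV subunits exist as tissue forms, and here the general form was the higher in each family. Cox6a1 stood at 455 FPKM and Cox6a2, the heart and muscle form, at 8.52 FPKM. Cox7a2 stood at 104 FPKM, the related Cox7a2l at 75.8 FPKM and the muscle form Cox7a1 at 3.37 FPKM. Cox6b1 stood at 189 FPKM and Cox6b2, the testis form, at 2.72 FPKM. Cox4i1 stood at 236 FPKM and Cox4i2, a form known from lung and hypoxia, at 1.58 FPKM. Cox7b stood at 91.1 FPKM against 0.48 FPKM for Cox7b2, and Cox8a at 602 FPKM against 0.42 FPKM for Cox8b. Ndufa4, which is now counted to complex IV, stood at 123 FPKM and its hypoxia-linked relative Ndufa4l2 at 2.39 FPKM.

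Some of these minor forms were highest in the 2 libraries with the highest meningeal fibroblast marker sums. Cox6b2 reached 4.46 CPM (LP replicate 3) and 5.32 CPM (HA replicate 3), while the other 7 libraries held 1.98 to 3.26 CPM. Cox7a1 had 2.74 and 2.71 CPM in those 2 libraries and 1.04 to 1.89 CPM in the others. Cox4i2 had 1.56 and 1.70 CPM there and 0.83 to 1.52 CPM in the others, so LP replicate 3 lay only just above the rest. The meningeal sums of 327 and 656 CPM stood in these same libraries, and their part in the 3 levels was not tested. Other minor forms differed, as Cox8b was highest in HA replicate 2 and Cox6a2 in HP replicate 2.

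The first comparison, HP against LP, asks what the diet of the dam did. No member passed edgeR's quasi-likelihood test with Benjamini-Hochberg adjustment (0 of 94 called, against 0.0114% of all 17546 genes). An unadjusted p under 0.05 was reached by 6 of 94 members (3 of 13 mitochondrial-encoded and 3 of 81 nuclear-encoded), where all genes gave 6.12%. DESeq2 and limma-voom also called 0 members. The median log2 fold change was -0.06 over the 7 abundant mitochondrial-encoded members and -0.01 over the 81 nuclear-encoded ones, and -0.00 over all genes. Estimates were below 0 for 11 of 13 mitochondrial-encoded and 46 of 81 nuclear-encoded members, where all genes gave 50.9%. Across any of the 3 groups, 0 of 94 members were called (0.0114% of all genes) and 5 had an unadjusted p under 0.05 (5.96%). These 5 were 3 of 13 mitochondrial-encoded and 2 of 81 nuclear-encoded members.

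The member with the smallest p in this comparison was mt-Nd4l, a small membrane subunit of complex I. It had 52.2, 22.9 and 7.41 CPM (LP), 7.0, 8.54 and 7.89 CPM (HP) and 13.8, 8.01 and 8.94 CPM in HA. Only LP replicates 1 and 2 stood high, and LP replicate 3 lay within the range of HP. The log2 fold change was -1.82 (SE 0.538, adjusted p = 0.714 in edgeR's test), and summing it with its copy Gm10222 gave -1.20 (SE 0.340, adjusted p = 0.674). Without LP replicate 3 the adjusted p was 0.0455, and with no filter on low counts it was 0.0101. LP replicates 1 and 2 are also the libraries with the highest striatal marker sums, at 383 and 507 CPM, whose part in this level was not tested.

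Other low mitochondrial-encoded members were highest in LP replicate 2 alone. For mt-Co2, the copper-binding subunit of complex IV, the levels were 54.8, 111 and 60.5 CPM (LP), 48.9, 57.8 and 50.7 CPM (HP) and 62.8, 52.2 and 56.7 CPM in HA. For mt-Co3, also of complex IV, they were 32.5, 114 and 39.9 CPM (LP), 55.9, 34.9 and 32.3 CPM (HP) and 39.2, 30.2 and 31.97 CPM in HA. LP replicate 2 stood above all other libraries for both genes, and the remaining values of the 3 groups overlapped. The log2 fold change of mt-Co3 for HP against LP was -0.61 (SE 0.411, adjusted p = 0.886 in edgeR's test) and turned to 0.18 without LP replicate 2. That of mt-Co2 was -0.52 (SE 0.222, adjusted p = 0.810 in edgeR's test).

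Libraries of HP and LP did not overlap for 7 of 81 nuclear-encoded members: 4 were higher in HP, where all genes gave 5.93%, and 3 were lower, where all genes gave 5.83%. Among mitochondrial-encoded members they were apart for mt-Atp8 alone, which was lower in HP. Ndufb9, an accessory subunit of complex I, had 43.8, 44.2 and 46.9 CPM in LP and 40.1, 36.2 and 42.5 CPM in HP. Its log2 fold change was -0.18 (SE 0.0708, adjusted p = 0.807 in edgeR's test). Ndufs7, an iron-sulfur subunit of complex I, had 80.9, 77.2 and 80.4 CPM in LP and 85.4, 82.1 and 87.6 CPM in HP. The groups did not overlap, and the log2 fold change was 0.10 (SE 0.0423, adjusted p = 0.810 in edgeR's test). Ndufa4l2 had 3.16, 2.65 and 3.49 CPM in LP and 1.67, 1.71 and 2.72 CPM in HP, so that 1 HP library reached the LP range. Its log2 fold change was -0.61 (SE 0.256, adjusted p = 0.810 in edgeR's test).

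The second comparison, HA against HP, asks what 4-PBA did in pups whose mothers ate the diet rich in fat and sucrose. Again 0 of 94 members were called by edgeR's test (0.0114% of all genes), by DESeq2 or by limma-voom. In edgeR's test 4 of 94 had an unadjusted p under 0.05 (5.42% of all genes). They were 1 of 13 mitochondrial-encoded and 3 of 81 nuclear-encoded members. All 3 HA libraries lay below all 3 HP libraries for 8 of 13 mitochondrial-encoded members and for 3 of 81 nuclear-encoded members, where all genes gave 5.89%. The 8 were the 7 abundant members and mt-Atp6. Estimates were below 0 for 9 of 13 mitochondrial-encoded and 36 of 81 nuclear-encoded members, where all genes gave 49.1%. Well-expressed genes leaned the same way: of 4869 nuclear-chromosome genes with a mean of at least 50 CPM, 3198 had estimates below 0, with a median log2 fold change of -0.02, against -0.09 over the 7 abundant mitochondrial-encoded members. None of the 13 had HA above HP in every library, which 5.92% of all genes did. Apart from mt-Nd6, which lies on the other strand, these 8 come from shared precursors, so the 8 are not independent results.

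The differences were small. In the most abundant member, mt-Co1, the levels were 13998, 14302 and 14137 CPM (HP) and 13418, 13384 and 13274 CPM in HA, while LP held 13495, 16144 and 14486 CPM. HA libraries lay close together below HP, and LP replicate 1 lay near HA. The log2 fold change was -0.08 for HA against HP (SE 0.0780, adjusted p = 0.867 in edgeR's test).

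The smallest p among mitochondrial-encoded members was that of mt-Nd6, a complex I subunit and the only member annotated on the minus strand of the mitochondrial genome. It had 873, 906 and 917 CPM (LP), 910, 874 and 920 CPM (HP) and 850, 792 and 772 CPM in HA. All 6 LP and HP libraries lay above all 3 HA libraries, and LP and HP overlapped. The log2 fold change was -0.16 for HA against HP (SE 0.0510, unadjusted p = 0.00921, adjusted p = 0.840 in edgeR's test) and 0.00 for HP against LP. The library kit is not described as stranded, and mt-Nd6 overlaps mt-Nd5 by 14 bases, so reads of the opposite strand cannot be told apart from its own.

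For mt-Nd5, another complex I subunit, the levels were 3640, 3944 and 3573 CPM (LP), 3806, 3708 and 3882 CPM (HP) and 3553, 3389 and 3452 CPM in HA. HA lay below both other groups, with a log2 fold change against HP of -0.13 (SE 0.0597, adjusted p = 0.840 in edgeR's test). For mt-Cytb, the core of complex III, they were 6143, 6914 and 6608 CPM (LP), 6291, 6295 and 6270 CPM (HP) and 6126, 6068 and 6096 CPM in HA. The 3 HA libraries again were the lowest, by a log2 fold change of -0.04 against HP (SE 0.0628, adjusted p = 0.914 in edgeR's test).

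For mt-Nd4 the values were 2562, 2907 and 2822 CPM (LP), 2611, 2608 and 2586 CPM (HP) and 2548, 2489 and 2420 CPM in HA. For mt-Nd1 they were 4682, 5608 and 5433 CPM (LP), 4752, 4998 and 4944 CPM (HP) and 4730, 4680 and 4432 CPM in HA. For mt-Nd2 they were 2976, 3662 and 3390 CPM (LP), 3198, 3202 and 3226 CPM (HP) and 3070, 2983 and 2830 CPM in HA. In mt-Nd1 and mt-Nd2, LP replicate 1 lay within the HA range, and in mt-Nd4 all LP libraries lay above HA. Their log2 fold changes for HA against HP were -0.07 (SE 0.0601), -0.09 (SE 0.0760) and -0.12 (SE 0.0765), with adjusted p of 0.864, 0.862 and 0.840 in edgeR's test. The plot of the 7 abundant members shows the HA libraries low, and LP replicate 2 highest except in mt-Nd6.

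**Figure D2:**
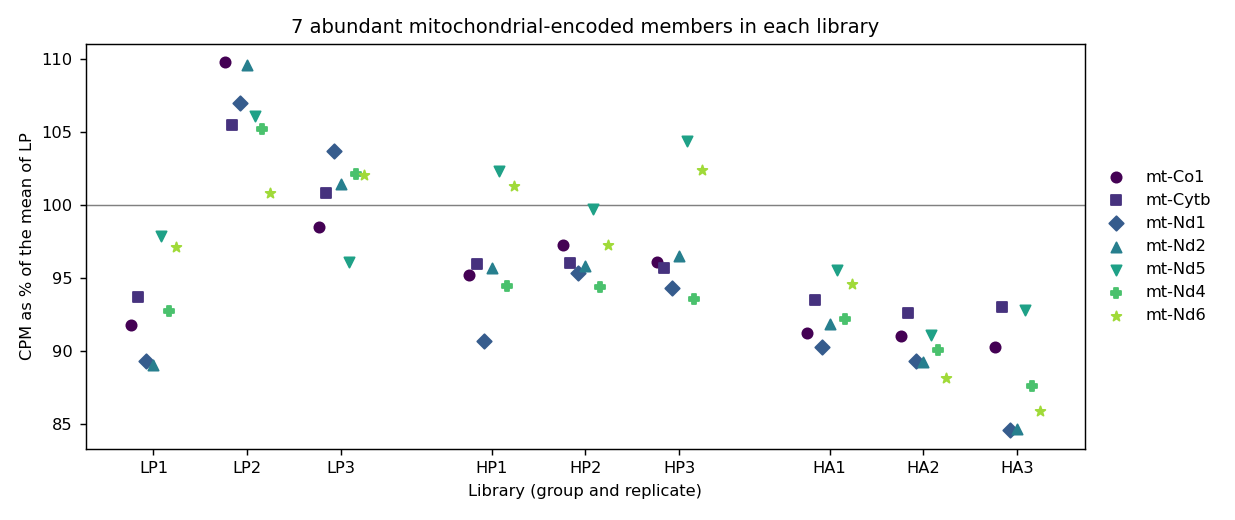
CPM of the 7 abundant mitochondrial-encoded members in each library, as a percentage of the gene's mean over the 3 LP libraries (grey line at 100). For all 7 genes the 3 HA points lie below the 3 HP points, and LP replicates differ more among themselves than HP or HA replicates except in mt-Nd6.

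The low members were less alike. For mt-Atp6, a subunit of the proton channel of complex V, the levels were 31.2, 61.2 and 46.8 CPM (LP), 41.7, 30.2 and 32.1 CPM (HP) and 28.7, 29.8 and 27.6 CPM in HA. HA lay below all other libraries, with a log2 fold change of -0.27 against HP (SE 0.208, adjusted p = 0.849 in edgeR's test) and -0.69 against LP (SE 0.207, adjusted p = 0.663). Its copy Gm10925, identical over 99.6% of its length, had 67.7, 46.3 and 27.2 CPM in HA and 33.9, 32.9 and 29.0 CPM in HP. The sum of the 2 genes gave a log2 fold change for HA against HP of 0.19 (SE 0.228), the opposite direction, and of -0.44 for HA against LP (SE 0.226).

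For mt-Nd3 the levels were 1.80, 4.54 and 3.33 CPM (LP), 2.56, 2.59 and 2.09 CPM (HP) and 2.80, 2.24 and 3.24 CPM in HA, with overlap between all groups. The log2 fold change for HA against HP was 0.20 (SE 0.307) alone and -0.01 (SE 0.103) with Gm28438 added. For mt-Atp8 the values lay between 0.05 and 0.66 CPM in all libraries. In HP they were 0.28, 0.10 and 0.10 CPM and in LP 0.54, 0.66 and 0.59 CPM, and the log2 fold change was -1.86 (SE 0.688, adjusted p = 0.797 in edgeR's test), from few counts.

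Nuclear-encoded members went in both directions in HA. Atp5e, the epsilon subunit of the ATP synthase stalk, had 71.9, 65.7 and 72.2 CPM (LP), 76.1, 70.7 and 68.1 CPM (HP) and 79.6, 83.8 and 77.4 CPM in HA. HA lay above all 6 other libraries, with a log2 fold change of 0.16 against HP (SE 0.0588, adjusted p = 0.840 in edgeR's test) and 0.20 against LP (SE 0.0588, adjusted p = 0.660). Uqcr11, a small subunit of complex III, had 67.5, 73.3 and 66.4 CPM (LP), 72.0, 65.0 and 66.4 CPM (HP) and 78.7, 73.9 and 75.3 CPM in HA. HA was again the highest group, with a log2 fold change against HP of 0.16 (SE 0.0571, adjusted p = 0.840 in edgeR's test).

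Atp5s, which is named as a factor of the ATP synthase, had 21.6, 21.1 and 21.5 CPM (LP), 23.2, 21.4 and 20.6 CPM (HP) and 19.9, 19.3 and 17.0 CPM in HA. It was the nuclear-encoded member with HA below all 6 other libraries, and its log2 fold change against HP was -0.22 (SE 0.0832, adjusted p = 0.840 in edgeR's test). HA lay below both other groups for 6 mitochondrial-encoded members and this 1 nuclear-encoded member, where all genes gave 1.29%, and above both for Atp5e and Uqcr11, where all genes gave 1.27%. Cox6b2 had a log2 fold change of 0.70 for HA against HP (SE 0.336, adjusted p = 0.840 in edgeR's test), with 5.32 CPM in HA replicate 3, the library with 656 CPM of meningeal markers. For Atp5k and Ndufc1, accessory subunits of complexes V and I, the log2 fold changes were 0.22 (SE 0.101) and 0.17 (SE 0.0835), and HA replicate 1 was the highest library for both.

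The third comparison, HA against LP, sets both the diet and the compound apart from the low-fat group and shares its HA libraries with the comparison above. Again 0 of 94 members were called by edgeR's test (0% of all genes), by DESeq2 or by limma-voom. In edgeR's test 10 of 94 had an unadjusted p under 0.05 (6.51% of all genes). They were 6 of 13 mitochondrial-encoded members, which apart from mt-Nd6 share precursors, and 4 of 81 nuclear-encoded ones. The estimate was below 0 for 13 of 13 mitochondrial-encoded members and for 40 of 81 nuclear-encoded members, where all genes gave 48.1%. Libraries of HA lay below all LP libraries for 6 of 13 mitochondrial-encoded members and 4 of 81 nuclear-encoded ones, where all genes gave 5.51%. HA lay above all LP libraries for 0 of 13 and 5 of 81, where all genes gave 5.4%. The median log2 fold change was -0.15 over the 7 abundant mitochondrial-encoded members, 0.00 over the nuclear-encoded members and 0.01 over all genes. Of the 4869 nuclear-chromosome genes of at least 50 CPM, 2854 were below 0, with a median of -0.01. In the comparison with HP the first 3 medians were -0.09, 0.02 and 0.00.

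Besides mt-Nd6 (-0.16, SE 0.0510, adjusted p = 0.697 in edgeR's test), the log2 fold changes for HA against LP were -0.15 for mt-Nd4 (SE 0.0601), -0.18 for mt-Nd1 (SE 0.0760), -0.17 for mt-Nd2 (SE 0.0765), -0.14 for mt-Co1 (SE 0.0780), -0.10 for mt-Nd5 (SE 0.0597) and -0.10 for mt-Cytb (SE 0.0628), with no adjusted p under 0.697. Cox7c, a small subunit of complex IV, had 126, 137 and 132 CPM in LP and 150, 142 and 140 CPM in HA. HA lay above LP in every library, with 0.13 as the log2 fold change (SE 0.0476, adjusted p = 0.756 in edgeR's test), and adding its copy Gm12338 left it at 0.13 (SE 0.0451). The plot of fold changes by class shows the abundant mitochondrial-encoded members below 0 in both comparisons with HA, with the nuclear-encoded members of each complex spread around 0.

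**Figure D3:**
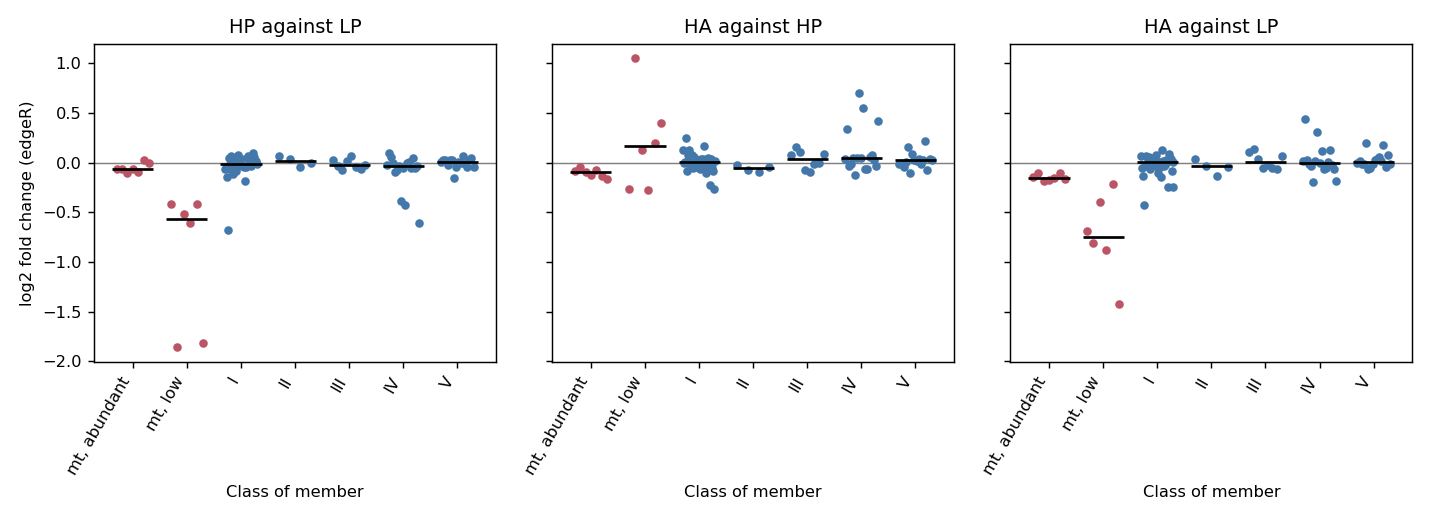
Log2 fold change from edgeR of each tested member in the 3 comparisons, for the 7 abundant and 6 low mitochondrial-encoded members (red) and for nuclear-encoded members by complex (blue, Atp5s left out), with black lines at the medians. The medians of the abundant mitochondrial-encoded members are -0.06, -0.09 and -0.15, and no median of a nuclear complex is beyond -0.06 or 0.05.

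Sums over members gave 1 value per library. The 13 mitochondrial-encoded members held 3.45%, 4.00% and 3.76% of all counts in the LP libraries, 3.52%, 3.62% and 3.59% in HP, and 3.43%, 3.44% and 3.39% in HA. Every HA share was below every HP and LP share, and LP replicate 1 exceeded the highest HA share by the least. Group means were 3.74% ± 0.272 in LP, 3.58% ± 0.0479 in HP and 3.42% ± 0.0264 in HA (SD, n = 3). The nuclear-encoded members held 1.05% ± 0.0228, 1.05% ± 0.0294 and 1.06% ± 0.0119 of counts, with overlap between all groups.

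The log2 ratio of the summed counts, mitochondrial-encoded over nuclear-encoded, was 1.70, 1.90 and 1.87 in LP, 1.72, 1.83 and 1.76 in HP, and 1.68, 1.70 and 1.69 in HA. HA was below every HP and every LP library, by the least for LP replicate 1, whose mitochondrial-encoded sum was 3.248 times the nuclear-encoded one against 3.246 in HA replicate 2. HP and LP overlapped. The difference in means was -0.0544 between HP and LP, -0.0831 between HA and HP and -0.138 between HA and LP. Within the code Hg43, HP held 1.72 and 1.83 and HA held 1.68 and 1.70, and within Hg13, HP held 1.76 and HA held 1.69, so HA was lower in both. No p is given for a sum over members chosen with earlier results known, and 3 libraries against 3 cannot go below an exact two-sided permutation p of 0.1.

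**Figure D4:**
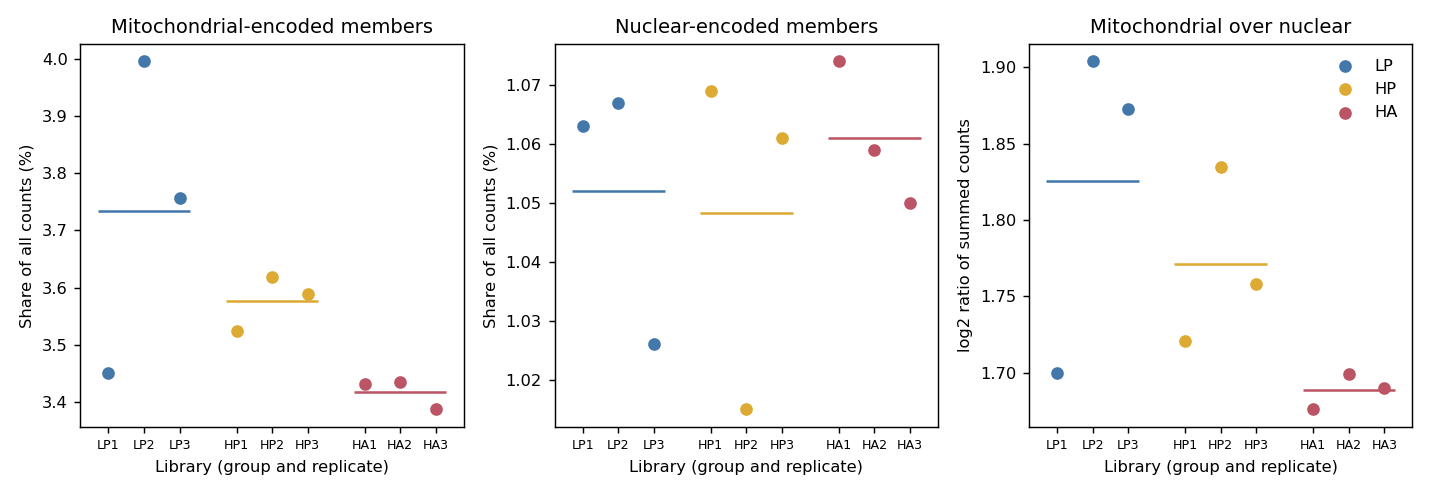
Share of all counts held by the 13 mitochondrial-encoded and the 85 nuclear-encoded members, and the log2 ratio of the 2 sums, in each library, with lines at group means (axes do not start at 0). The HA libraries lie at 3.39% to 3.44% in the first panel, below the other 6, and among the others in the second.

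Mitochondrial transfer RNAs, which are cut from the same precursors, held 0.0149%, 0.0169% and 0.0146% of counts in LP, 0.0172%, 0.0154% and 0.0165% in HP, and 0.0152%, 0.0148% and 0.0133% in HA. HA lay below HP here too and overlapped LP. Mitochondrial ribosomal RNAs held 0.658%, 0.757% and 0.742% of counts in LP, 0.744%, 0.773% and 0.757% in HP and 0.766%, 0.733% and 0.660% in HA, with overlap between all groups. The lowest shares were those of LP replicate 1 and HA replicate 3. Markers of oligodendrocytes (6 genes, all with counts) had a summed level of 12890 to 20100 CPM (LP), 16700 to 19970 CPM (HP) and 11330 to 19160 CPM in HA, with 6 of 6 estimates below 0 between HA and HP. Markers of neurons (8 genes, all with counts) summed to 3922 to 4232 CPM (LP), 3684 to 4156 CPM (HP) and 3532 to 3954 CPM in HA, with 7 of 8 below 0. Their part in the mitochondrial-encoded levels was not tested.

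Nuclear-encoded members of complex I summed to 2717 ± 64.4 CPM (LP), 2705 ± 82.2 CPM (HP) and 2674 ± 24.4 CPM in HA (SD, n = 3). Those of complex II summed to 798.9 ± 14.7, 822.5 ± 29.6 and 799.4 ± 12.9 CPM, and those of complex III to 1046 ± 39.8, 1044 ± 54.9 and 1046 ± 19.1 CPM. Those of complex IV summed to 2171 ± 47.4, 2127 ± 63.3 and 2165 ± 99.3 CPM, and those of complex V to 3791 ± 152, 3824 ± 158 and 3823 ± 89.1 CPM. In each complex the libraries of all 3 groups overlapped. All 4 complex II members had estimates below 0 for HA relative to HP, and their median was -0.06 on the log2 scale. Among 4869 nuclear-chromosome genes of at least 50 CPM, 3198 were below 0 in that comparison. For HA relative to LP, 3 of the 4 were below 0.

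Across the 9 libraries, the 7 abundant mitochondrial-encoded members varied together, with a median Pearson r of 0.814 over their 21 pairs. This describes genes that share precursors, apart from mt-Nd6 on the other strand. The median r was 0.191 over 3240 pairs of nuclear-encoded members and 0.0475 over 567 pairs of 1 mitochondrial-encoded and 1 nuclear-encoded member. Outside the members, the genes most like the summed mitochondrial-encoded level, among 10206 named protein-coding genes of at least 10 CPM, were Tmem184c (r = 0.953), Itgb8 (0.947), Mindy2 (0.927), Trappc2 (0.922) and Ahcyl1 (0.915) over the same 9 libraries. They were picked as the highest of 10206, and how high r would reach by chance over 9 libraries was not tested.

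Nuclear-encoded members of at least 20 CPM were steady between libraries, with a median coefficient of variation of 4.64% over 75 members, against 5.65% over 8503 nuclear genes of that level. Of the 75, 5 exceeded 10%, where all such genes gave 12.5%, or 1060 genes. They were Ndufv2, Atp5g1, Ndufs5, Atp5k and Uqcrb, and Ndufa12, below the floor of 20 CPM, varied by 45%. These members were singled out after their values were seen.

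Ndufs5, an accessory subunit of complex I, had 98.5, 95.7 and 95.1 CPM (LP), 95.6, 97.1 and 92.6 CPM (HP) and 57.2, 96.1 and 90.1 CPM in HA. HA replicate 1 alone was low. The pseudogene BC002163 on chromosome 16, printed above, had 43.7 CPM in that library and 0.945 to 2.07 CPM in the other 8. The sum of the pair was 101 CPM in HA replicate 1 and 91.7 to 99.5 CPM elsewhere, and the log2 fold change of Ndufs5 for HA against HP moved from -0.23 (SE 0.149) to 0.0057 (SE 0.0457) with the copy added.

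Atp5g1, which encodes the ring subunit c of the ATP synthase, stood at 2 levels, with 105 to 111 CPM in LP replicates 1 and 2 and HP replicate 1, 102 and 107 CPM in HA replicates 1 and 2, and 77.8 to 82.9 CPM in the other 4 libraries. Its copy Gm10039 had 61.0 to 65.2 CPM in the 5 libraries where Atp5g1 was high and 82.0 to 94.3 CPM in the 4 where it was low. The sum stayed between 163 and 177 CPM in all 9.

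Ndufa12, a complex I accessory subunit, had 36.3 CPM in LP replicate 1 and 10.2 to 18.9 CPM in the other 8 libraries. Its copy Gm15920 had 43.4 CPM in LP replicate 1 and 55.6 to 70.1 CPM in the others, and the sum was 69.1 to 80.3 CPM in all 9. For HP against LP the log2 fold change of Ndufa12 was -0.68 (SE 0.360, adjusted p = 0.832 in edgeR's test), and that of the sum was 0.04 (SE 0.0644). Gm15920 was counted at a higher level than Ndufa12 in every library, so the 10.9 FPKM of Ndufa12 is uncertain.

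Ndufv2, a subunit of complex I, had 78.6 CPM in HA replicate 1 and 128 to 139 CPM in the other 8 libraries. Uqcrb of complex III had 53.8 CPM in HP replicate 2 and 67.5 to 79.8 CPM in the others. For Ndufv2 no copy passed the search, and the 3 copies of Uqcrb had 0.535 to 4.30 CPM. The plot of members stacked on their copies shows even sums for Ndufs5, Atp5g1 and Ndufa12.

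**Figure D5:**
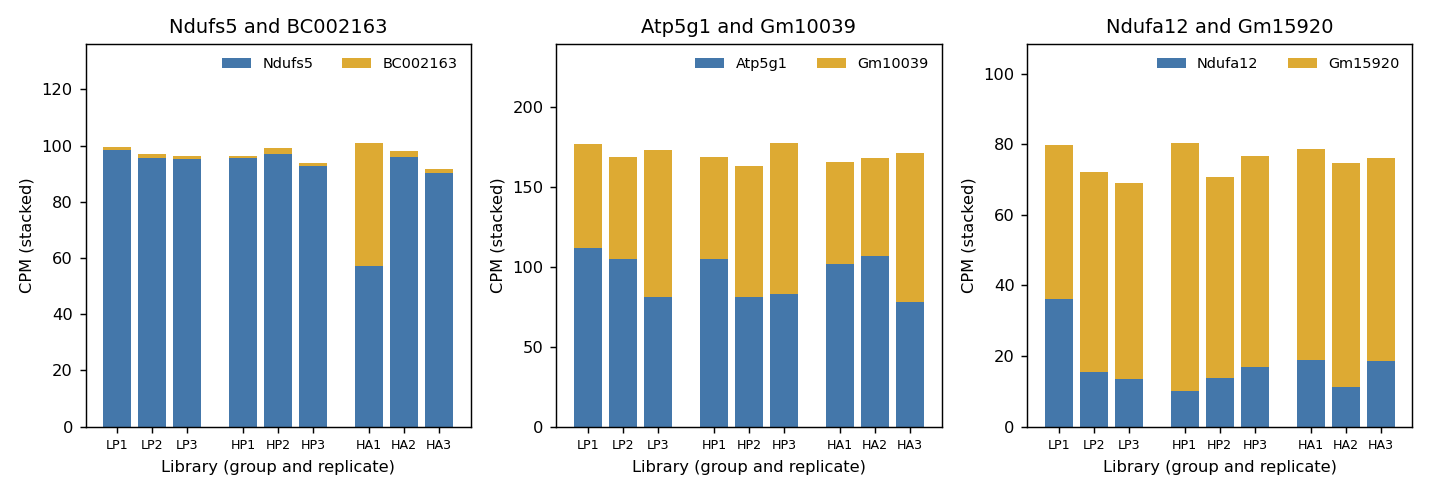
CPM in each library of 3 nuclear-encoded members (blue) with the CPM of a near-identical processed pseudogene stacked on top (yellow), from 0. Ndufs5 is low and BC002163 high in HA replicate 1, Atp5g1 and Gm10039 trade places between libraries, and each stack has nearly the same height in all 9 libraries.

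Genes that build and run the respiratory chain outside the members were counted by list, and edgeR's test called 0 genes in either direction in each of the 11 lists and 3 comparisons. The lists held 16 tested assembly factors of complex I, 33 of complexes II to V, 17 genes of mitochondrial DNA transcription and replication, 17 of mitochondrial RNA processing and decay, 16 nuclear regulators, 13 of the tricarboxylic acid cycle, 15 markers of mitochondrial mass, 13 of the mitochondrial stress response, 7 uncoupling proteins and carriers, 77 mitochondrial ribosomal proteins and 6 subunits outside the naming rule. Median log2 fold changes of the lists lay between -0.04 and 0.06, beside -0.00 to 0.01 for all genes. For HA against HP, the genes that transcribe and replicate mitochondrial DNA had a median of 0.06 with 10 of 17 estimates above 0, and those for processing and decay of its RNA had -0.02 with 8 of 17 above 0. Estimates for tricarboxylic acid cycle genes were below 0 in 9 of 13 for HA relative to HP and in 11 of 13 for HA relative to LP. Those for markers of mitochondrial mass were below 0 in 10 and 11 of 15. Most genes of both lists had at least 50 CPM, a level at which HA estimates leaned below 0 in general. Of the 4869 nuclear-chromosome genes at that level, 3198 were below 0 when HP was the reference, and 2854 with LP as reference. Estimates for genes of the mitochondrial stress response were above 0 in 8 of 13 for HA relative to HP and in 12 of 13 for HA relative to LP. These counts carry no test of the list.

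The smallest p in these lists were those of Tomm70a, an import receptor of the outer membrane, at 239 ± 3.95 CPM in HA and 262 ± 8.97 CPM in LP (unadjusted p = 0.00626, adjusted p = 0.645 in edgeR's test; SD, n = 3), and Hspd1, the mitochondrial chaperonin, at 262 ± 6.80 CPM (HP) and 235 ± 12.4 CPM in LP (unadjusted p = 0.00840, adjusted p = 0.727). Ttc19, an assembly factor of complex III, had 72.0 ± 1.74 CPM in HA, 79.2 ± 3.95 CPM (HP) and 79.7 ± 1.55 CPM (LP), with adjusted p of 0.840 and 0.719. Mrpl52 of the mitochondrial ribosome had 27.0 ± 0.834 CPM in HA and 23.5 ± 1.24 CPM in LP (adjusted p = 0.737 in edgeR's test). Libraries of the groups named did not overlap for these 4 genes, which follows in part from their choice by smallest p. Of all genes, 5.4% to 5.93% were apart in a given direction and comparison.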

How the data were processed

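RNA sequencing of 9 hypothalamus libraries gave the deposited table of gene counts, which the authors made with HISAT2 2.0.5 and featureCounts 1.5.0-p3, per the submitters' processing notes. FPKM values, scaled per gene length and library size, were deposited by the authors and used only to compare genes. The notes name mm9, but 98.33% of gene coordinates match GENCODE M21 (GRCm38). Counts were tested with edgeR 4.0.16 in R 4.3.3 (quasi-likelihood test, 9 libraries, default low-count filter, TMM scaling, Benjamini-Hochberg adjustment over 17546 genes, threshold 0.05), which was tested on simulated data. CPM use TMM-scaled totals. DESeq2 1.42.0 and limma 3.58.1 (voom), other scalings, no filter, left-out libraries and sums with copies were alternatives.

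Members and lists were chosen with earlier results of these data known. Named were the mitochondrial-encoded members, the 8 of smallest p in a comparison, the 2 highest per complex, isoform families, list genes of smallest p and 5 genes most like the mitochondrial-encoded sum. Of these, some nuclear-encoded members and list genes are given by counts only. Same-numbered libraries correlated at -0.0276 to 0.486 over 9 pairs, and libraries of other numbers at -0.367 to 0.251 over 18 pairs. The 2 ranges overlap, and the numbers were not taken as pairs. A fit with the replicate number as a block was an alternative.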

Additional observations from a re-analysis of the deposited data

How the results depend on the processing

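With no filter on low counts, 1 member was called between HP and LP (mt-Nd4l, adjusted p = 0.0101 in edgeR's test), 1 between HA and LP (mt-Atp6, adjusted p = 0.0333) and 2 across any of the 3 groups. The calls between HP and LP ranged from 0 to 1 over left-out libraries, with 1 (mt-Nd4l) when LP replicate 3 was left out. Leaving out both LP replicate 3 and HA replicate 3 also gave 1, and 1 across any of the 3 groups, where the libraries left out in turn gave 0. The shares of all genes called under these settings are not given here, so these calls have no background beside them. With the replicate block, 0 members were called in each comparison, as under the other scalings, DESeq2 and limma-voom.

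The log2 ratio as a median over members in place of sums was 0.0122 for HP relative to LP, the other direction, and -0.13 for HA relative to HP. With 1 library left out, the summed ratio ranged from -0.117 to -0.0151 (HP and LP), -0.108 to -0.0514 (HA and HP) and -0.201 to -0.0981 (HA and LP). The median of the 7 abundant mitochondrial-encoded members ranged over the settings from -0.11 to 0.01, -0.11 to -0.07 and -0.2 to -0.11, with 0.01 without LP replicate 2.

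Counts of members with every HA library below the other group, added after seeing the data, ranged with 1 library left out from 8 to 9 mitochondrial-encoded and 3 to 17 nuclear-encoded members against HP (17 without HP replicate 2), and from 6 to 10 and 5 to 12 against LP (10 without LP replicate 1, 12 without LP replicate 3). Without LP replicate 3 and HA replicate 3 the nuclear-encoded counts were 7 and 16. With all libraries, scaling by library totals gave 7 mitochondrial-encoded and 2 nuclear-encoded members against HP (8 and 3 with TMM), and 4 and 4 against LP (6 and 4 with TMM). Leaving libraries out makes such separation commoner, at 9.16% to 13% of all genes against HP, 9.42% to 11.8% against LP with 1 library left out, and 18.1% against LP without both.

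Directions turned between HP and LP for mt-Nd2 (-0.14 to 0.01 over left-out libraries), mt-Co1 (-0.11 to 0.02), mt-Co3 (-0.91 to 0.18) and mt-Nd6 (-0.02 to 0.02, and -0.00032 with library totals). They turned between HA and HP for mt-Co3 (-0.42 to 0.0063) and between HA and LP for mt-Nd3 (-0.51 to 0.11). Summed with the copy, also added after seeing the data, mt-Nd3 was at -0.01 and mt-Atp6 at 0.19 between HA and HP. The cause of these shifts was not tested.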
